A study of Mus musculus with 2 samples.

Results

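The Toll-like receptors are the germline-encoded sensors by which neutrophils and other phagocytes detect microbial lipids, proteins and nucleic acids. Receptors for lipids and flagellin sit at the cell surface, and those for nucleic acids sit in endosomes, which they reach with the help of the transporter Unc93b1. Ligand binding brings the cytoplasmic TIR domains together, and these recruit the adaptors Myd88 or Ticam1, which lead to the NF-kB and interferon regulatory factors.

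The receptor list held 10 mouse genes, Tlr1 to Tlr9 and Tlr13, and not Tlr12, which is given at the end. The 10 genes were taken from 18193 measured genes by gene symbol. All 16 probe sets that the platform annotation names for 1 of these genes alone were kept. A gene took the probe set with the highest mean on the scale log2(intensity + 16). The wild-type group was 1 array of neutrophils grown from bone marrow of male C57BL/6 mice, and the mir-223 knockout group was 1 array of neutrophils grown in the same way from male knockout mice of that strain. In both groups haematopoietic progenitors had been grown for 6 days with G-CSF and SCF, and both received cycloheximide, an inhibitor of translation, at 100 ug/ml for the last 8 min. The cultures were not sorted, and the labels do not say how many mice stand behind each.

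With 1 array per genotype no difference has a replicate check, so no test was made and every value compares these 2 arrays. Differences are knockout minus wild type on the log2(intensity + 16) scale, which understates the difference of dim probe sets. The spread at hand was the pooled SD of the probe sets that read 1 gene, 0.144 over 5017 genes, which is not a replicate error. A gene counted as expressed when its mean was at or above the median of all probe sets, an intensity of 33.9. By that rule 9 of the 10 receptors and 11006 genes in all were expressed. The neutrophil markers S100a8, S100a9, Mpo, Elane, Ltf and Ngp had intensities between 13593 and 31305 on the 2 arrays, and the summed level of 10 measured neutrophil markers, which these bright genes dominate, was 137362 in wild type and 143991 in the knockout. Of the 10 markers, 9 were higher in the knockout, with a median of 0.13. Surface receptors of the lineage stood above the median of the Toll-like receptors, 0.29. The integrin Itgam had intensities of 755 and 1191 (0.65), the chemokine receptor Cxcr2 347 and 455 (0.38) and the G-CSF receptor Csf3r 1630 and 2057 (0.33). The antimicrobial peptide gene Camp was the lower member, at 9325 and 7606 (-0.29). The part of these lineage markers in the receptor differences was not tested. No probe set was named for the gene of miR-223, so the deletion itself could not be checked. All 24 probe sets of the poly-A spike-ins were lower in the knockout, with a median of -0.17. Several of them read the same spike-in, so they are not separate checks. Of 18 probe sets of the hybridization controls 17 were lower, with a median of -0.11. The deposited scale was kept. Setting it to the poly-A controls would add 0.17 to every difference and put 88.7% of expressed genes above 0, in place of 49.7%.

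The deleted microRNA is shown because its loss is the only labelled difference between the cultures. Its mature 3p strand lies at chrX:96242884-96242905 on the plus strand of GRCm38.p6 (RefSeq), and capitals mark the seed, bases 2 to 8, which pairs with target messages.
mmu-miR-223-3p: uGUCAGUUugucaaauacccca
Target sites for this seed in the receptor messages were not analysed here.

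The receptors were mostly higher without miR-223, by small amounts. Of the 9 expressed receptors, 8 were higher on the knockout array, where 49.7% of all expressed genes were higher. Tlr5 is among the 8 but passed the expression filter only through its knockout value (33.6 and 42.6), so the filter favoured its sign. Counts without the filter are given below. The median over the 9 expressed receptors includes Tlr5. The median difference of the 9 was 0.29, or 1.22-fold, beside a median of -0.00037 over all expressed genes. A difference of that size or above was found in 5.69% of expressed genes. Tlr1 alone was at least 1.5-fold higher, 1 of 9, as were 0.691% of expressed genes. No receptor was 1.5-fold lower (0.391% of expressed genes were), so 1 of 9 was that far apart in either direction, beside 1.08% of expressed genes. None was 2-fold apart (0.145% of expressed genes). At a smaller size of 0.32 in log2, Tlr1, Tlr8 and Tlr2 counted, 3 of 9, beside 6.79% of expressed genes. Tlr2, the shared partner of Tlr1 and Tlr6, was the single expressed receptor of the list on the lower side. Tlr12, outside the list, stood at -0.02 and 0.05 on its 2 probe sets. Without the expression filter 9 of 10 receptors were higher, with a median of 0.27. The receptor this adds, Tlr3, was dim at 11.7 and 13.7, and its second probe set stood at -0.01. The share of all measured genes that were higher without the filter was not counted, so this number has no background beside it.

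**Figure D1:**
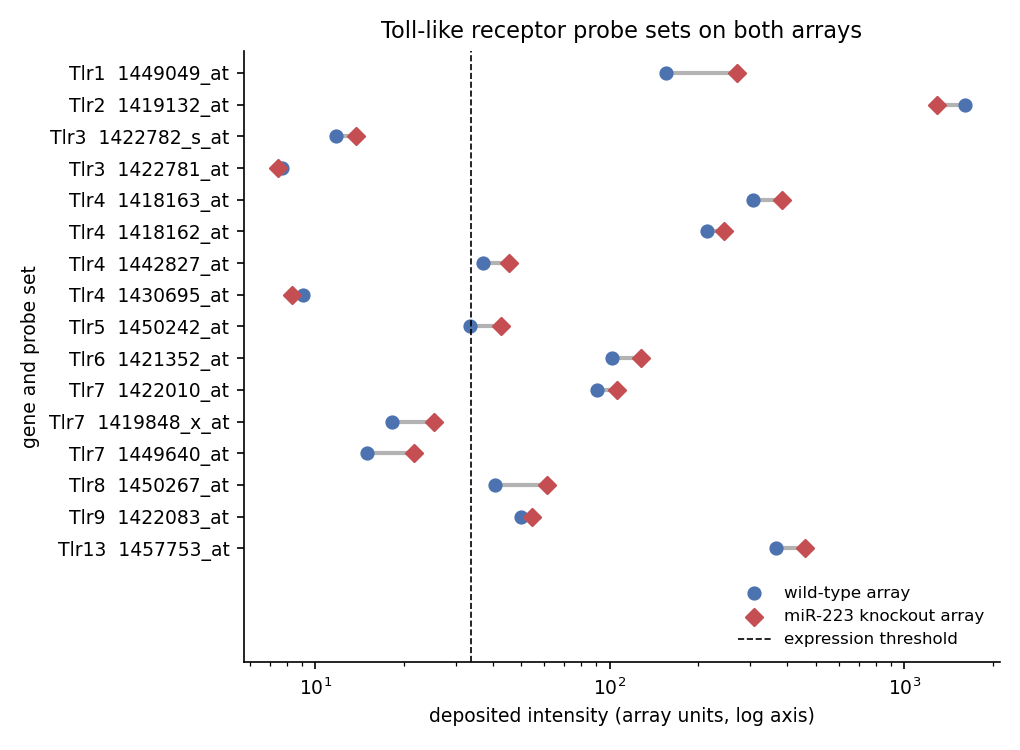
Deposited intensity (log axis) of each of the 16 Toll-like receptor probe sets on the wild-type array (circles) and the miR-223 knockout array (diamonds), with the expression threshold of 33.9 as a dashed line. The knockout value is the higher of the pair in 13 of 16 probe sets, and the exceptions are the Tlr2 probe set and 1 dim probe set each of Tlr3 and Tlr4. The share over all probe sets was not counted.

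**Figure D2:**
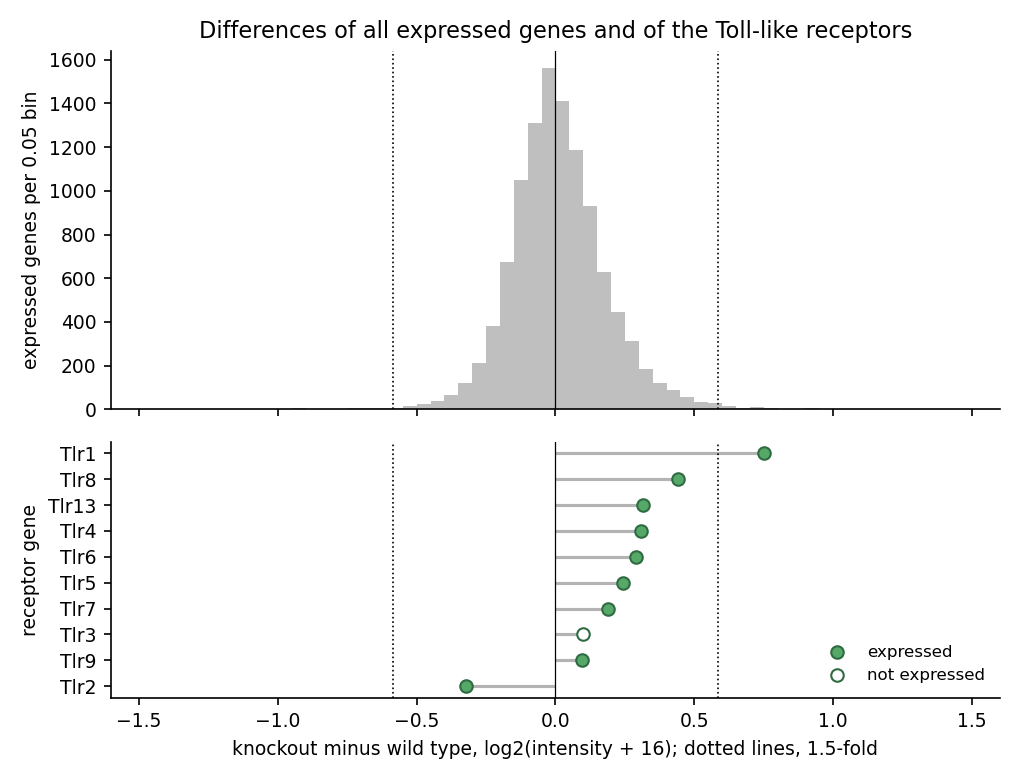
Number of expressed genes per 0.05 bin of the knockout minus wild-type difference, log2(intensity + 16) (top), and the difference of each receptor on the same axis (bottom; open circle, not expressed; dotted lines, 1.5-fold). Tlr1 lies past 1.5-fold at 0.75, Tlr2 lies at -0.32, and the other expressed receptors lie between 0.09 and 0.44.

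The surface receptors that bind bacterial lipopeptides work in pairs, Tlr2 with Tlr1 for triacylated and Tlr2 with Tlr6 for diacylated lipopeptides, and these partners stood on opposite sides of 0. Tlr1 gave an intensity of 155 in wild-type and 271 in knockout cells. This difference of 0.75, or 1.68-fold, was the largest among the receptors, and 0.282% of expressed genes were as high or higher. Tlr6, the neighbouring gene of Tlr1 on chromosome 5 with no protein-coding gene between them, had intensities of 101 and 128, a difference of 0.29. Tlr2 gave an intensity of 1612 in wild-type and 1286 in knockout cells. Its difference was -0.32, and 2.39% of expressed genes were as low or lower. The difference of Tlr1 stood 1.07 above that of Tlr2, and that of Tlr6 stood 0.61 above it. Each of these genes was read by 1 probe set, so no second probe set bears on its value.

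Tlr4, the receptor of lipopolysaccharide, was higher on its 3 expressed probe sets. The brightest gave an intensity of 307 in wild type and 384 in the knockout, a difference of 0.31. The next had 213 and 244, a difference of 0.18. The dimmest of the 3 had 37.3 and 45.3, a difference of 0.20. The fourth probe set was not expressed, at 9.12 and 8.36. The 3 expressed probe sets thus gave the same sign and differed by less than the SD between probe sets, and the mean over all 4 was 0.16. Tlr5, the receptor of flagellin, had intensities of 33.6 and 42.6, a difference of 0.24. Its wild-type value lay under the expression threshold, so it counted as expressed through its knockout value.

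The endosomal receptors of nucleic acids were higher throughout their expressed members, 4 of 4, with differences from 0.09 to 0.44. Tlr8, which binds products of single-stranded RNA, gave an intensity of 40.9 in wild type and 61.2 in the knockout. Its difference of 0.44, or 1.36-fold, was the second in size, and it came from a dim probe set. With a pseudocount of 64 it was 0.26. Tlr13, the receptor of bacterial ribosomal RNA, had intensities of 367 and 460, a difference of 0.31.

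Tlr7, the other receptor of single-stranded RNA, had intensities of 90.7 and 106 on its brightest probe set, a difference of 0.19. Its 2 other probe sets were not expressed and gave 0.27 and 0.28. Tlr9, the receptor of unmethylated CpG DNA, had intensities of 50.1 and 54.5. Its difference of 0.09 was within the SD between probe sets, and 27.4% of expressed genes were as high or higher. Tlr3, the receptor of double-stranded RNA, was not expressed on either array. Its probe sets had intensities of 11.7 and 13.7 and of 7.71 and 7.50, with differences of opposite sign (0.10 and -0.01).

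Of the 10 genes, Tlr7, Tlr8 and Tlr13 lie on the X chromosome, as does the gene of miR-223. Tlr7 and Tlr8 are direct neighbours, and 82 protein-coding genes lie between Tlr13 and miR-223 in the GRCm38.p6 gene order. The 3 X-linked receptors had a median of 0.31 and the 6 expressed autosomal receptors a median of 0.27. The 296 expressed genes of the X chromosome had a median of 0.0099.

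Promoter sequence was available for 8 of the 10 receptors in RefSeq windows of 300 bases, 250 before and 50 after a gene start, in GRCm38.p6. Tlr4 and Tlr7 had no entry. Both strands were searched for the NF-kB consensus, a PU.1 core (GAGGAAG), the core bound by interferon regulatory factors (AANNGAAA), a C/EBP half-site pair (TTNNGNAA) and an AP-1 site (TGANTCA). The NF-kB consensus occurred in the windows of Tlr2 and Tlr3, where 4.51% of all 32851 windows hold it. The PU.1 core occurred in Tlr1, Tlr9 and Tlr13 (13.6% of windows), the interferon factor core in Tlr1, Tlr2, Tlr3 and Tlr6 (23.9%), AP-1 in Tlr9 (7.81%) and C/EBP in 6 of the 8 receptors (40.7%). The shares are per window, whereas a receptor counted when any of its windows held a match. The 8 receptors had 10 windows, so the 2 are not in the same unit. The matches are descriptions of sequence and not measured sites.

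The stretches of 30 bases around matches in Tlr1, Tlr2, Tlr6 and Tlr13 are shown because Tlr1 and Tlr2 were the highest and the lowest receptor, and Tlr6 and Tlr13 are further members with a PU.1 match or with several overlapping interferon factor cores. Capitals mark the match.
Tlr1, PU.1 core beginning 23 bases before the start, chr5:64933563-64933592, minus strand: attaaatgttgGAGGAAGtaggagcttgaa
Tlr13, PU.1 core beginning 83 bases before the start, chrX:106143181-106143210, plus strand: aaaaaagagaaGAGGAAGgaaatgtctcat
Tlr2, overlapping NF-kB matches beginning 173 bases before the start, chr3:83841761-83841790, minus strand: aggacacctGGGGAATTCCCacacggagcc
Tlr2, NF-kB match beginning 8 bases before the start, chr3:83841597-83841626, minus strand: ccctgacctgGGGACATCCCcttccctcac
Tlr6, overlapping interferon factor cores beginning 116 bases before the start, chr5:64959258-64959287, minus strand: attctTTTCTCTTTCACTTTCTGTTtgatg
The windows of both listed Tlr1 starts held no NF-kB match, and that of Tlr2 held no PU.1 match. Tlr9, with a difference of 0.09, held PU.1 matches too, while Tlr6 and Tlr8, both higher, held none. Tlr1 and Tlr2 both held the interferon factor core. Whether matches go with the differences was not tested.

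The other genes of the pathway were read from lists of proteins that act with the receptors. Co-receptors and ligand carriers had 4 of 6 expressed members higher and a median of 0.20. Ly86, the secreted partner of the receptor homologue Cd180, stood highest, with intensities of 142 and 241, a difference of 0.71. Cd180 itself stood at -0.04. Cd14, which passes lipopolysaccharide and lipopeptides to Tlr4 and Tlr2, had intensities of 1125 and 896. Its difference was -0.32. Ly96, the subunit of the Tlr4 complex that binds lipopolysaccharide, had intensities of 109 and 129, a difference of 0.21. Clec7a, the beta-glucan receptor that acts beside Tlr2, stood at 0.41.

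Genes for folding, traffic and processing of the receptors had 8 of 11 expressed members higher and a median of 0.19. Unc93b1, which carries the nucleic acid sensors to endosomes, had intensities of 1154 and 1315, a difference of 0.19. Slc15a4 (0.39) and Slc15a3 (0.26) are transporters of the endolysosomal membrane. Endosomal receptors are cut by lysosomal proteases before they signal. Of these proteases, Ctsl had intensities of 1099.6 and 2619, a difference of 1.24. Ctss stood at 0.48 and Lgmn at 0.39, while Ctsb had a brightest value of 0.13 and probe sets from -0.26 to 0.59. Without Ctsl the median was 0.16. The chaperone Hsp90b1 stood at 0.12, with a second probe set at 0.33, and its cofactor Cnpy3 at -0.07.

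Downstream of the receptors the lists lay near 0. The 5 measured adaptors had a median of 0.0065. Myd88, used by all the receptors except Tlr3, had intensities of 1590 and 1608, a difference of 0.02. Ticam1, the adaptor of Tlr3 and of endosomal Tlr4, stood at 0.05, and Sarm1 at 0.01. Tirap, which bridges Myd88 to Tlr2 and Tlr4, stood at -0.26 with a second probe set at -0.16. Pik3ap1, an adaptor that links the receptors to PI3K, stood at -1.46 on its brighter probe set, with intensities of 856 and 300.4, and at 0.06 on the other.

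The 14 measured kinases and ubiquitin ligases had a median of 0.06, 9 higher and 5 lower, and none was 1.5-fold apart. The ligase Peli2 (0.32), the kinase Irak2 (-0.30) and Ikbkg, the regulatory subunit of the IkB kinase (0.29), had the largest differences. Ikbkg had probe sets down to -0.03. Of 9 expressed inhibitors 5 were lower and 4 higher, and the median was -0.03. Tnfaip3, which removes ubiquitin chains from pathway proteins, was 1.5-fold apart at 516 and 325 (-0.64), but its other expressed probe set stood at -0.04.

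Transcription factors were divided, 6 higher and 5 lower of 11, with a median of 0.01. The NF-kB subunits Relb (-0.54) and Nfkb2 (-0.37) and the interferon factor Irf7 (-0.26) had the largest differences. Of the genes that the pathway induces, 9 of 15 were expressed, 5 higher and 4 lower, with a median of 0.0068. The chemokine Cxcl10 (-0.43) and the cytokine Tnf (-0.39) were the lowest, and Ccl3 (0.14) was the highest. Ptgs2, the inducible cyclooxygenase, counted as not expressed, with intensities of 36.3 and 18.7. The receptor list had the highest median of the 8 lists, here and under each of the 10 other settings run. Of these, centring and the poly-A scale shift every gene alike, so they could not change this order. When probe sets were averaged the receptor median was 0.25, beside 0.22 for the traffic list. With a pseudocount of 64 the receptor median was 0.21, beside 0.18 for the traffic list. The lists were chosen with earlier results of these data known, and all the settings re-use the same arrays. The order of the lists therefore cannot show that the receptors stand out. The medians of adaptors, inhibitors, transcription factors and induced genes changed sign with some of these settings. Whether the lists differ beyond chance was not tested, since there is 1 array per genotype.

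**Figure D3:**
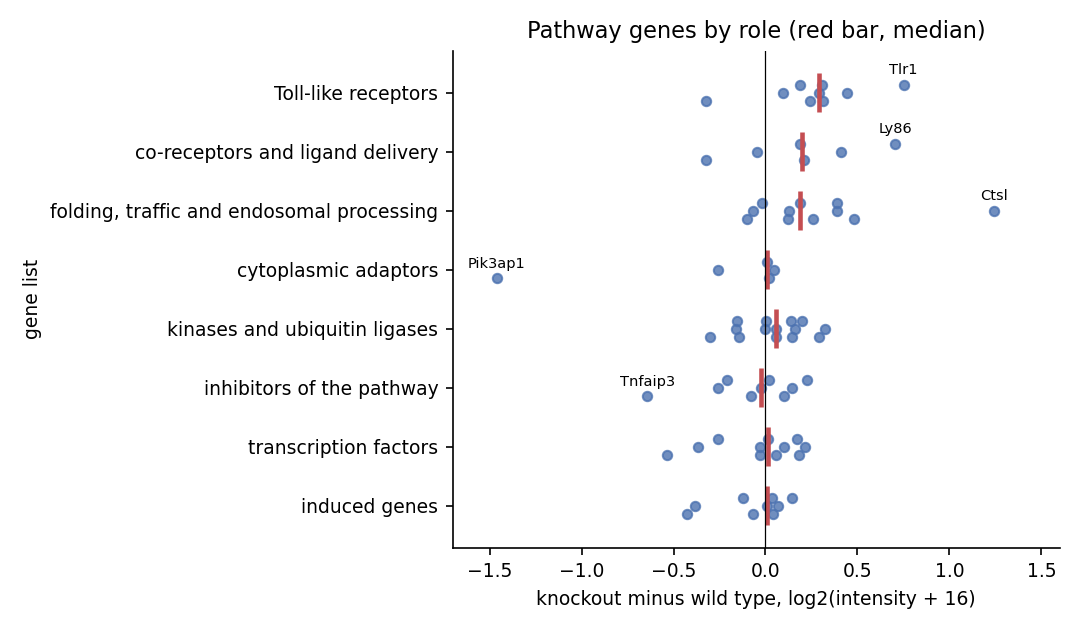
Knockout minus wild-type difference, log2(intensity + 16), of every expressed gene (points) in the receptor list and 7 lists of pathway genes, with the list median as a red bar and genes at least 1.5-fold apart named. The medians are 0.29 for the receptors, 0.20 and 0.19 for co-receptors and for traffic, and between -0.03 and 0.06 for the lists downstream.

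Markers of other cells differed between the arrays as well. Many of those cells also carry Toll-like receptors, and in bulk RNA more cells of a type cannot be told apart from more RNA per cell. The summed intensity of 8 monocyte and macrophage markers was 6673 in wild type and 7708 in the knockout, and 6517 and 7236 without Apoe. Of the 7 expressed members 5 were higher. Cx3cr1, at 207 and 131 (-0.60), and Adgre1 (-0.02) were lower. For 9 dendritic cell markers the sums were 1452 and 1253, with 5 of 6 expressed members lower, or 3 of 6 relative to the poly-A controls. For 5 B cell markers they were 874 and 1290, with 2 of 3 expressed members higher. Most of that gain came from Ighm, at 662 and 1042, whose expressed probe sets ran in both directions, from -0.14 to 0.94. Cd79b was also higher, at 123 and 172 (0.43) on its 1 expressed probe set. Pax5 was lower, as were Cd79a and Ms4a1, which were not expressed, the last near the bottom of the scale at 11.7 and 10.5. Mast cell and basophil markers (9 of 9 expressed lower, 6467 and 4520), eosinophil markers (3 of 4 lower, 1233 and 1006) and megakaryocyte markers (6 of 6 lower, 1949 and 1094) had lower sums on the knockout array. In that order, 7 of 9, 3 of 4 and 5 of 6 were lower relative to the poly-A controls. The eosinophil exception was Siglecf, at 187 and 370 (0.92). Kit, at -0.05, had a second expressed probe set at 0.18. The part of these marker lists in the receptor differences was not tested.

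The sign of the 9 expressed receptors was the same under each of the 10 other settings run, and the sizes moved with the pseudocount and the scale. Much of this was fixed in advance. A pseudocount cannot change a sign, and an expression filter does not alter a gene's value. Averaging probe sets and leaving out shared-sequence probe sets cannot alter the 7 receptors with 1 probe set. Centring subtracted a median of -0.00037, and the poly-A scale could reverse only Tlr2. Quantile normalization and loess were free to change signs and did not, but they moved the values little. Tlr9, the expressed receptor nearest 0, went from 0.09 to 0.11 and 0.10. The array medians were near-equal beforehand, so this is a weak check. Tlr1 ranged from 0.62 to 0.92 and Tlr2 from -0.33 to -0.15.

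**Figure D4:**
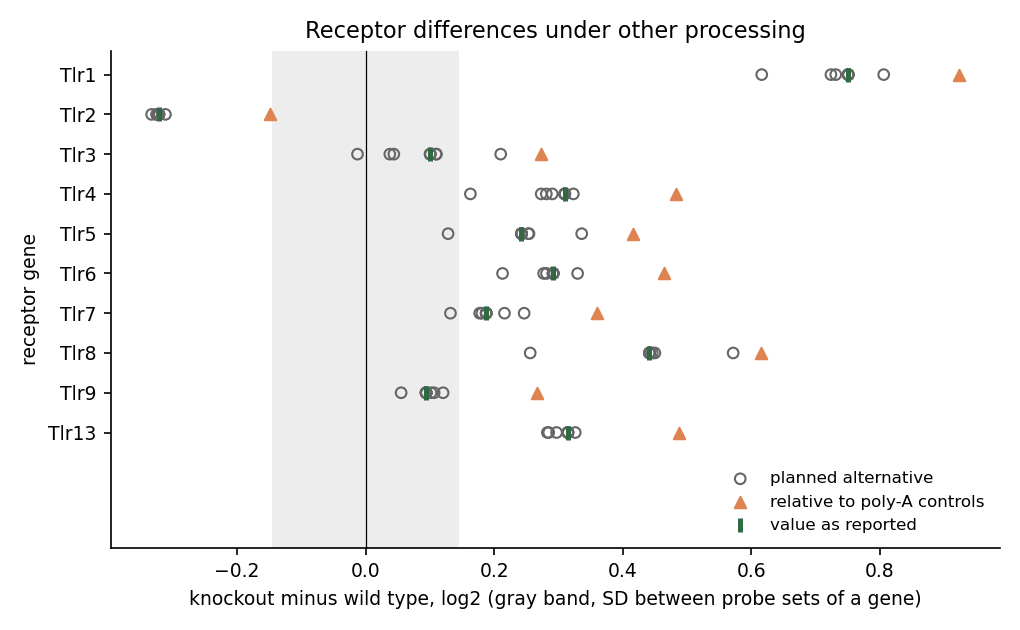
Difference of each receptor as reported (green bars), under 9 other settings (open circles) and relative to the poly-A controls (triangles), in log2 units, with the SD between probe sets of a gene as a gray band. Every expressed receptor keeps its side of 0, which several of the settings could not change. Tlr3, which is not expressed, is at -0.01 in 1 setting.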

How the data were processed

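Total RNA was labelled with the Affymetrix 3' IVT Express kit, per the labels' protocols, so signals come mainly from 3' ends. The values the authors deposited are linear intensities, 1 for each probe set on each array; how they were background-corrected, summarized and normalized is not stated in the labels. Medians were near-equal (34.1 and 33.7) and the values were used as deposited. If the arrays were normalized together, a global difference in RNA would not show.

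Of 45101 probe sets, 64 controls were set aside. The annotation named 34945 of the rest for 1 gene, and 34741 symbols were matched through Entrez identifiers to RefSeq (GRCm38.p6). The fold is (knockout + 16) over (wild type + 16). Genes 1.5-fold apart were counted. Values were computed with Python 3.11.15 and pandas 2.3.3. The 1.5-fold call was tried on simulated data with planted 2-fold differences, which does not bear on smaller differences or on counts of signs. The number of arrays limits the precision.

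Members and lists were chosen with earlier results of these data known. All members were named. Of each other pathway list the members at 1.5-fold, or else the 3 largest expressed differences, were named, and any adaptor or trafficking gene could be. Marker lists were given by counts and sums. Cd14, Ly96, Cd180, Clec7a and single markers of the marker lists were named after their values were seen, as was the split by chromosome. Genes with no probe set of their own in the annotation were not analysed here. Other settings were pseudocounts of 1 and 64, centring on the median, quantile normalization, loess (span 0.3), a filter at the 75th percentile or none, averaging a gene's probe sets, leaving out shared-sequence probe sets, and a higher and a lower fold threshold. The poly-A scale was added after seeing the data.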

Additional observations from a re-analysis of the deposited data

How the results depend on the processing

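The median difference of the expressed receptors stayed between 0.21 and 0.33 under 9 other settings and was 0.46 relative to the poly-A controls. The number of receptors 1.5-fold apart was 2 relative to these controls, a scale that raises every difference. The share of all expressed genes 1.5-fold apart on that scale was not counted, so this number has no background beside it. On the deposited scale the number of receptors apart was 0 at 2-fold (0.145% of expressed genes). It was 3 at a difference of 0.32 (6.79%), the value at which Tlr2 lies. With the filter at the 75th percentile 3 of 4 expressed receptors were higher. The share of all genes higher under that filter was not counted. Single values and medians that changed sign lay near 0 as reported. Tlr3 stood at -0.013 without probe sets of shared suffix classes. The adaptor median was -0.26 with the stricter filter, -2.8e-05 with the mean of probe sets and -0.12 without shared suffix classes. The transcription factor median was -0.010 and that of induced genes -0.0043 under quantile normalization. The median of induced genes was -0.011 with no filter and -0.044 with the mean of probe sets. The inhibitor median was 0.028 with the mean of probe sets and 0.15 relative to the poly-A controls. The cause was not tested. No paired analysis was possible because each genotype has 1 array. Of the expressed receptors, Tlr5, Tlr8 and Tlr9 have the dimmest signals, nearest the expression threshold, and a pseudocount of 64 gave Tlr8 0.26.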

Other observations

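Relatives of the receptors that carry a TIR domain or bind the same cytokines were read in addition, chosen after the data were seen. Tlr12, a further mouse receptor, gave an intensity of 43.1 in wild type and 42.3 in the knockout, a difference of -0.02, with a second probe set at 0.05. Il1r2, the decoy receptor of interleukin-1, had intensities of 1857 and 2442, a difference of 0.39. The signalling receptor Il1r1 stood at 0.19, with a second probe set at 0.01. The shared chain Il1rap stood at 0.13, with probe sets from -0.06 to 0.31. Of the interleukin-18 receptor chains, Il18r1 stood at -0.13 and Il18rap at 0.05, with a second probe set at 0.17.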
